A study of Mus musculus with 4 samples.

Results

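The 10 genes described here encode the core of the NF-κB pathway and its feedback arm. They are *Nfkb1*, *Nfkb2*, *Rela* and *Relb* among the DNA-binding subunits, *Nfkbia*, *Nfkbib* and *Nfkbiz* among the IκB proteins, the ubiquitin-editing enzyme gene *Tnfaip3*, the TNF receptor gene *Tnfrsf1a* and the kinase gene *Ikbkb*. They were taken by name, by a rule that used no measured value although earlier results of these data were known, and all 10 of 10 were found among the 24322 gene symbols of the FPKM files. RNA was measured in retinal cells that expressed the reporter mTFP and were isolated by FACS, from 2 control and 2 *Rax* iCKO mice. Every mouse carried *Rlbp1-CreERT2*, a transgene in which a promoter fragment of the Müller glial gene *Rlbp1* drives tamoxifen-dependent Cre, and the reporter *R26-CAG-LoxP-mTFP1*, and the labels give 129S6 for all of them. Control mice 7984 and 3911 were *Rax* flox/WT, so that they too could lose 1 allele, and *Rax* iCKO mice 7983 and 3914 were *Rax* flox/flox. Tamoxifen was given at P4, the retinas were collected at P14, and each library came from 1 mouse.

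In resting cells, NF-κB dimers such as p50 (from *Nfkb1*) with RelA are held in the cytoplasm by IκB proteins. Ligands such as TNF, acting through receptors that include the one encoded by *Tnfrsf1a*, activate the IκB kinase complex, which marks IκB for degradation and frees the dimers to enter the nucleus. *Nfkbia*, *Tnfaip3* and *Nfkb2* are themselves NF-κB target genes, so that their RNA is often read as a sign of recent pathway activity. In the retina, NF-κB signaling in Müller glial cells and microglia takes part in the inflammatory response to injury. The comparison asks whether RNA of this pathway differed between *Rax* iCKO and control cells, since the study asked about inflammation and gliosis after loss of *Rax*.

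Promoter sequences are shown for the feedback genes, which NF-κB is known to act on directly. RefSeq windows of 300 bases, from 250 before to 50 after each start site in GRCm38, were found for 6 of the 10 genes, in 9 windows. The 10-base κB consensus, searched on both strands, was present in 5 of these 9 windows, at *Nfkbia*, *Tnfaip3* and *Nfkb2*, and in 4.51% of all 32851 windows. It was not in the windows of *Rela*, *Nfkbib* and *Tnfrsf1a*. The 3 sequences below run 5′ to 3′ on the strand of the gene up to its start site, with matches to the κB consensus in capitals. The first is *Nfkbia* (chr12:55492648-55492707, minus strand), from base -60 to base -1 before the start. The second is *Tnfaip3* (chr10:19015411-19015540, minus strand), from base -130 to base -1. The third is *Nfkb2* (chr19:46304698-46304725, plus strand), from base -39 to base -12, where 3 overlapping matches on both strands merge into 1 run. The RefSeq start sites used for *Tnfaip3* and *Nfkb2* lie inside the annotated spans of these genes given below, and so do the stretches shown.
Nfkbia: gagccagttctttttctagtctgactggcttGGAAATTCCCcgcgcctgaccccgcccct
Tnfaip3: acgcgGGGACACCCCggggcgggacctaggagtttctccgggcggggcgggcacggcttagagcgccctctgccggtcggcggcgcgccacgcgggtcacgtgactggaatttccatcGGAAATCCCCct
Nfkb2: GGGAATTCCCCccctcggggggccgaaa
The *Nfkbia* match lay at bases -29 to -20, and the *Tnfaip3* matches at bases -125 to -116 and -12 to -3. A further *Nfkb2* match lay at bases -11 to -2 of the same start site. The motif TAATT, which the study used as the predicted Rax binding sequence, was searched on both strands in the same windows. It was in 0 of the 9 windows of these 6 genes and in 27.0% of all windows. The study predicted its sites in a longer stretch upstream of *Socs3*, and bases beyond the windows were not searched here. These matches describe the letters of the windows and do not show binding.

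The deposited values are FPKM, which divide the fragments on a gene by its exon length and by the mapped fragments of the library, so that levels can be set side by side between genes. The read numbers behind them were estimated from the whole-read steps of low FPKM values, which put the mapped reads between 9250000 and 12710000, with control mouse 7984 the deepest. A 95% Poisson interval on the estimated reads is called a counting interval here, and it covers counting error only. Genotypes were compared with limma on log2(FPKM + 1) in the 12363 genes whose mean over the libraries was 1 FPKM or more, and all 10 genes passed this filter. FPKM of *Rax* itself were 189.1 in control mouse 7984, 181.4 in control mouse 3911, 111.4 in *Rax* iCKO mouse 7983 and 98.4 in *Rax* iCKO mouse 3914 (log2 fold change -0.82, SE 0.21, adjusted p = 0.9999 in limma). Markers of Müller glia were abundant, with all 15 of 15 tested, and they summed to 17220 and 13000 FPKM in control mice 7984 and 3911, against 11810 and 11640 FPKM in *Rax* iCKO mice 7983 and 3914. RNA of other cells was present as well, since 10 bipolar cell markers summed to between 5094 and 11660 FPKM and 15 microglia markers to between 25.8 and 132.5 FPKM. The sum of 12 rod markers was between 2332 and 2392 FPKM in control and between 1543 and 1689 FPKM in *Rax* iCKO. In such bulk samples, fewer cells of a type and less RNA per cell cannot be told apart.

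None of the 10 genes differed between genotypes beyond the spread between mice. In limma, 0 of the 10 had an adjusted p under 0.05, against 0.0243% of all genes tested (3 genes), and 0 had an unadjusted p under 0.05, against 2.86% of all genes. The log2 fold change of *Rax* iCKO over control was positive for 5 genes and negative for 5, against 49.2% positive and 50.8% negative among all genes. Without control mouse 7984 it was positive for 9 and negative for 1, and without control mouse 3911 positive for 3 and negative for 7. The fold changes ran from -0.27 for *Tnfrsf1a* to 0.44 for *Tnfaip3*, with a median of 0.04, beside a median of -0.0044 over all genes. Their median size regardless of sign was 0.12, against 0.19 over all genes. Both *Rax* iCKO libraries lay above both controls for 1 gene, *Tnfaip3*, against 15.4% of all genes, and below both for 0, against 14.1%. With 2 mice against 2, the smallest p that a two-sided exact permutation test can give is 0.333. On the scale of FPKM + 1, the 95% limits of the fold reached from 0.471 at the lowest (*Tnfrsf1a*) to 2.33 at the highest (*Nfkb1*). For genes of low FPKM such as *Nfkb1* this scale understates the fold, so that the data leave a wider range possible. The 95% intervals of the fold given below are on the same scale.

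**Figure D1:**
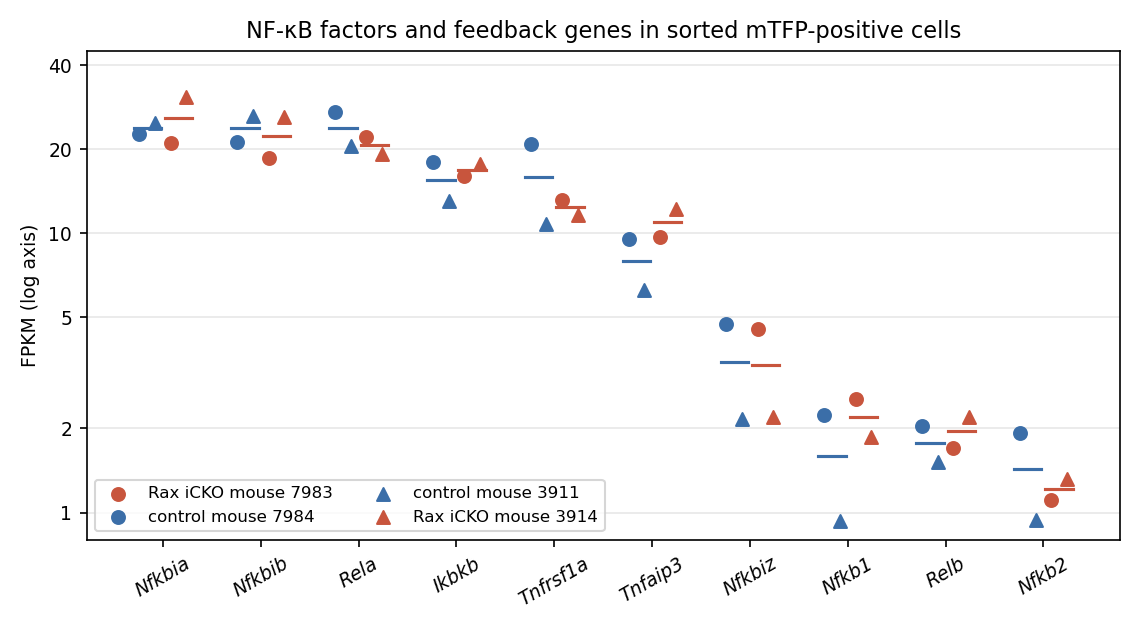
FPKM (log axis) of the 10 genes in each library, with control in blue and *Rax* iCKO in red, circles for mice 7983 and 7984, triangles for mice 3911 and 3914, and a line at each group mean (n = 2). *Nfkbia*, *Nfkbib* and *Rela* were the most abundant, and *Tnfaip3* is the gene whose *Rax* iCKO points both lie above both control points.

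At the receptor, *Tnfrsf1a*, which encodes the main TNF receptor of most tissues, is annotated at chr6:125349362-125362484 of GRCm38 (plus strand). Its FPKM were 20.9 in control mouse 7984, 10.8 in control mouse 3911, 13.2 in *Rax* iCKO mouse 7983 and 11.6 in *Rax* iCKO mouse 3914. Control mouse 7984 stood above the other 3 libraries, and the genotypes overlapped. Mean FPKM were 15.8 ± 7.13 for control and 12.4 ± 1.12 for *Rax* iCKO (SD, n = 2 each), with a log2 fold change of -0.27 (SE 0.34, adjusted p = 0.9999 in limma). Without control mouse 7984 the log2 fold change was 0.18. The counting interval of that mouse ran from 19.1 to 22.8 FPKM, clear of the intervals of the other libraries, of which the highest bound was 14.9 FPKM. That library also held RNA of neutrophil markers, with a sum over 9 genes of 31.5 FPKM against at most 1.88 FPKM in the others, and the part of these cells in its *Tnfrsf1a* level was not tested. The ligand gene *Tnf* was listed at 0 in mice 7983 and 3911 and at 0.336 and 0.153 FPKM in mice 7984 and 3914.

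*Ikbkb* (chr8:22659212-22706589, minus strand), which encodes the catalytic kinase IKKβ of the canonical pathway, had FPKM of 17.9 in control mouse 7984, 13.1 in control mouse 3911, 16.1 in *Rax* iCKO mouse 7983 and 17.7 in *Rax* iCKO mouse 3914. The groups overlapped (log2 fold change 0.13, SE 0.24, adjusted p = 0.9999 in limma). The 95% interval of the fold ran from 0.726 to 1.65, and without control mouse 3911 the log2 fold change was -0.08. *Chuk*, which encodes the partner kinase IKKα, was between 15.1 and 18.5 FPKM, and *Ikbkg*, which encodes the regulatory subunit NEMO, between 9.33 and 13.3 FPKM. The ratio of *Ikbkb* to *Chuk* in FPKM was between 0.711 and 1.19 over the 4 libraries, so that the kinase pair was of like abundance in each.

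Among the subunits, RNA of *Rela* far exceeded that of the others. *Rela* (chr19:5637483-5648130, plus strand), which encodes the transactivating subunit p65, had FPKM of 27.2 in control mouse 7984, 20.5 in control mouse 3911, 22.2 in *Rax* iCKO mouse 7983 and 19.2 in *Rax* iCKO mouse 3914. Mouse 7984 was again the highest, and the groups overlapped, with a log2 fold change of -0.18 (SE 0.24, adjusted p = 0.9999 in limma) that was 0.01 without that mouse. *Nfkb1* (chr3:135584655-135691547, minus strand), which encodes the p105 precursor of p50, had FPKM of 2.24 in control mouse 7984, 0.934 in control mouse 3911, 2.54 in *Rax* iCKO mouse 7983 and 1.86 in *Rax* iCKO mouse 3914. Control mouse 3911 was the lowest, with a counting interval of 0.647 to 1.31 FPKM on about 34 reads, below the intervals of the other 3 libraries. The log2 fold change of *Nfkb1* was 0.35 (SE 0.36, adjusted p = 0.9999 in limma), and it was -0.03 without that mouse. *Rela* was between 8.72 and 21.9 times as abundant as *Nfkb1* within a library. This ratio was lower in both *Rax* iCKO libraries, at 8.72 and 10.3, than in the controls, at 12.1 and 21.9, which is the smallest p the design allows (two-sided exact permutation test, p = 0.333). Of the 6 ratios computed, 3 had the genotypes apart, each at this p. The other two were *Rela* to *Relb*, at 13.3 and 13.5 in control mice 7984 and 3911 against 13.04 and 8.72 in *Rax* iCKO mice 7983 and 3914, and *Nfkbia* to *Nfkbib*.

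The subunits of the noncanonical arm rested on few reads. *Relb* (chr7:19606217-19629438, minus strand), which encodes the partner of p52, had FPKM of 2.05 in control mouse 7984, 1.51 in control mouse 3911, 1.70 in *Rax* iCKO mouse 7983 and 2.21 in *Rax* iCKO mouse 3914. *Nfkb2* (chr19:46304320-46312385, plus strand), which encodes the p100 precursor of p52, had FPKM of 1.93 in control mouse 7984, 0.943 in control mouse 3911, 1.11 in *Rax* iCKO mouse 7983 and 1.32 in *Rax* iCKO mouse 3914. Both *Rax* iCKO values of *Nfkb2* lay between the control values, and for *Relb* the values alternated. The log2 fold changes were 0.09 (SE 0.29) for *Relb* and -0.11 (SE 0.33) for *Nfkb2*, each with an adjusted p of 0.9999 in limma. *Relb* rested on about 28 to 52 reads in a library and *Nfkb2* on about 26 to 72. The counting intervals of *Relb* overlapped among all 4 libraries. Those of *Nfkb2* were apart between control mouse 7984 (1.51 to 2.43 FPKM) and control mouse 3911 (0.616 to 1.38 FPKM). The sign of *Relb* changed without control mouse 3911 (-0.05) or *Rax* iCKO mouse 3914 (-0.04), and that of *Nfkb2* without control mouse 7984 (0.19). Exons of *Nfkb2* share 531 bases with AC114539.1 and 299 bases with *Psd* on the opposite strand, and the counting is not stated to use strand, so these reads cannot be told apart. *Rel*, the remaining subunit gene, was between 0.271 and 0.725 FPKM and was not tested.

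The classical inhibitors were of like abundance to *Rela*. *Nfkbia* (IκBα, chr12:55489410-55492647, minus strand), the inhibitor that NF-κB itself induces, had FPKM of 22.7 in control mouse 7984, 24.8 in control mouse 3911, 21.1 in *Rax* iCKO mouse 7983 and 30.8 in *Rax* iCKO mouse 3914. The *Rax* iCKO values enclosed the control values, the lowest and the highest library both being of that genotype. Mean FPKM were 23.7 ± 1.49 for control and 25.9 ± 6.86 for *Rax* iCKO (SD, n = 2 each), with a log2 fold change of 0.10 (SE 0.25, adjusted p = 0.9999 in limma). Without *Rax* iCKO mouse 3914 it was -0.16. The 95% interval of the fold ran from 0.701 to 1.64. *Nfkbib* (IκBβ, chr7:28758251-28767512, minus strand), an inhibitor that is not part of the rapid feedback, had FPKM of 21.2 in control mouse 7984, 26.34 in control mouse 3911, 18.6 in *Rax* iCKO mouse 7983 and 26.03 in *Rax* iCKO mouse 3914. The values of the genotypes overlapped (log2 fold change -0.10, SE 0.25, adjusted p = 0.9999 in limma). Its sign changed without *Rax* iCKO mouse 7983 (0.14) or control mouse 3911 (0.05), and its exons share 314 bases with *Ccer2* and 42 bases with *Sirt2* on the opposite strand. *Nfkbia* was 1.07 and 0.940 times as abundant as *Nfkbib* in control mice 7984 and 3911 and 1.13 and 1.18 times in *Rax* iCKO mice 7983 and 3914, and both together were between 1.61 and 2.95 times as abundant as *Rela*.

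*Tnfaip3*, which encodes the ubiquitin-editing brake A20, is annotated at chr10:19000910-19015657 of GRCm38 (minus strand), and it had the largest difference of the 10 on the log2(FPKM + 1) scale. With pseudocount 0.1 that of *Nfkb1* was larger, at 0.55 against 0.48, and the ratios of mean FPKM were 1.385 for *Nfkb1* and 1.382 for *Tnfaip3*. Its FPKM were 9.57 in control mouse 7984, 6.27 in control mouse 3911, 9.73 in *Rax* iCKO mouse 7983 and 12.2 in *Rax* iCKO mouse 3914. The groups did not overlap, but the gap between the lower *Rax* iCKO and the higher control library was 0.156 FPKM, or 1.63% of the latter. The counting intervals of those libraries, 8.78 to 10.7 FPKM in mouse 7983 and 8.76 to 10.4 FPKM in mouse 7984, overlapped over nearly their whole length. Mean FPKM were 7.92 ± 2.33 for control and 10.9 ± 1.73 for *Rax* iCKO (SD, n = 2 each), and the test gave the smallest p that the design allows (two-sided exact permutation test, p = 0.333). On the log2 scale the difference was 0.44 (SE 0.28), with a limma p of 0.174 before adjustment and 0.9999 after it. Most of it came from mice 3914 and 3911, whose log2(FPKM + 1) differed by 0.86, against 0.02 between mice 7983 and 7984. Without control mouse 3911 the log2 fold change was 0.17, and without control mouse 7984 it was 0.71. The genes tested whose pattern over the 4 libraries was nearest to that of *Tnfaip3*, by Euclidean distance between deviations of log2(FPKM + 1), were *Inpp5b*, *Ehd3* and *Tnrc6a*, at distances of 0.05, 0.06 and 0.07.

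**Figure D2:**
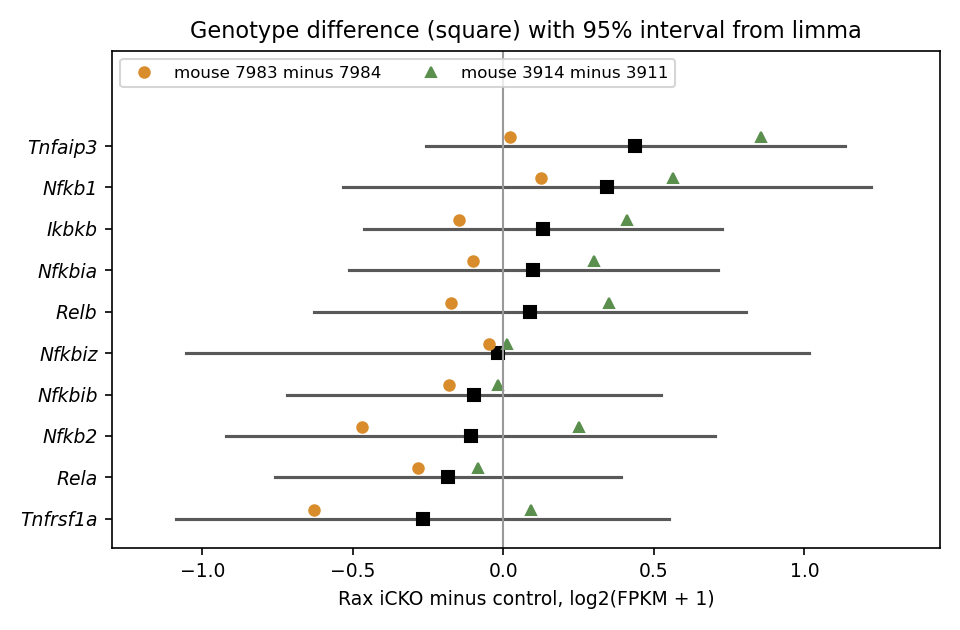
Difference in log2(FPKM + 1), *Rax* iCKO minus control, from limma (squares) with its 95% interval (lines), for each of the 10 genes, beside the difference within mice 7983 and 7984 (circles) and within mice 3914 and 3911 (triangles). All 10 intervals include 0, and *Tnfaip3* at 0.44 and *Tnfrsf1a* at -0.27 are the ends of the range.

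*Nfkbiz* separated the mice by number and not by genotype. This gene (chr16:55811375-55838899, minus strand) encodes IκBζ, a nuclear IκB protein that acts as a cofactor on a subset of NF-κB targets. It was at 4.74 FPKM in control mouse 7984 and 4.55 FPKM in *Rax* iCKO mouse 7983, and at 2.17 FPKM in control mouse 3911 and 2.19 FPKM in *Rax* iCKO mouse 3914. The values within each run of mouse numbers nearly coincided, and the gap between the runs was larger than the counting intervals, which ended at 2.73 FPKM in the lower mice and began at 3.89 FPKM in the higher. By genotype, mean FPKM were 3.45 ± 1.82 for control and 3.37 ± 1.67 for *Rax* iCKO (SD, n = 2 each), with a log2 fold change of -0.02 (SE 0.42, adjusted p = 0.9999 in limma). Its 95% interval was wide, with a fold of 0.482 to 2.02, and the log2 fold change was 0.41 without control mouse 7984 and 0.38 without *Rax* iCKO mouse 3914. *Nfkb1*, *Rela* and *Tnfrsf1a* were likewise higher in both mice 7983 and 7984 than in both mice 3911 and 3914, which makes 4 of the 10 genes, against 26.8% of all genes tested. *Nfkbia* and *Nfkbib* were lower in both, which makes 2 of the 10, against 29.1% of all genes. Bipolar cell markers moved with the same division, summing to 6925 and 5094 FPKM in mice 7983 and 7984 and to 11660 and 9725 FPKM in mice 3911 and 3914, with 0 of the 10 markers at 0 in all libraries. Of 15 endothelial and pericyte markers 5 were tested, and the sum over all 15 was 440.1 and 528.3 FPKM in mice 7983 and 7984, against 268.7 and 284.6 FPKM in mice 3911 and 3914. *Kdr* made up most of it, at 385.1 and 463.6 FPKM in mice 7983 and 7984 and at 228.1 and 241.2 FPKM in mice 3911 and 3914, whereas *Pecam1* and *Cdh5*, which define endothelium, stayed under 1 FPKM in all 4. Of the other tested markers, *Flt1* and *Pdgfrb* ran the same way as *Kdr*. *Flt1* was at 20.4 and 25.1 FPKM in mice 7983 and 7984 and at 13.2 and 15.01 FPKM in mice 3911 and 3914. *Pdgfrb* was at 21.5 and 24.7 FPKM and at 10.3 and 11.8 FPKM in the same order. The endothelial genes *Esam* and *Egfl7* ran the other way. *Esam* was at 4.48 and 4.18 FPKM in mice 7983 and 7984 and at 5.34 and 6.36 FPKM in mice 3911 and 3914, and *Egfl7* at 4.89 and 6.52 FPKM and at 8.54 and 7.58 FPKM in the same order. The part of these markers in the pattern was not tested, and the labels do not say what the runs of numbers stand for.

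**Figure D3:**
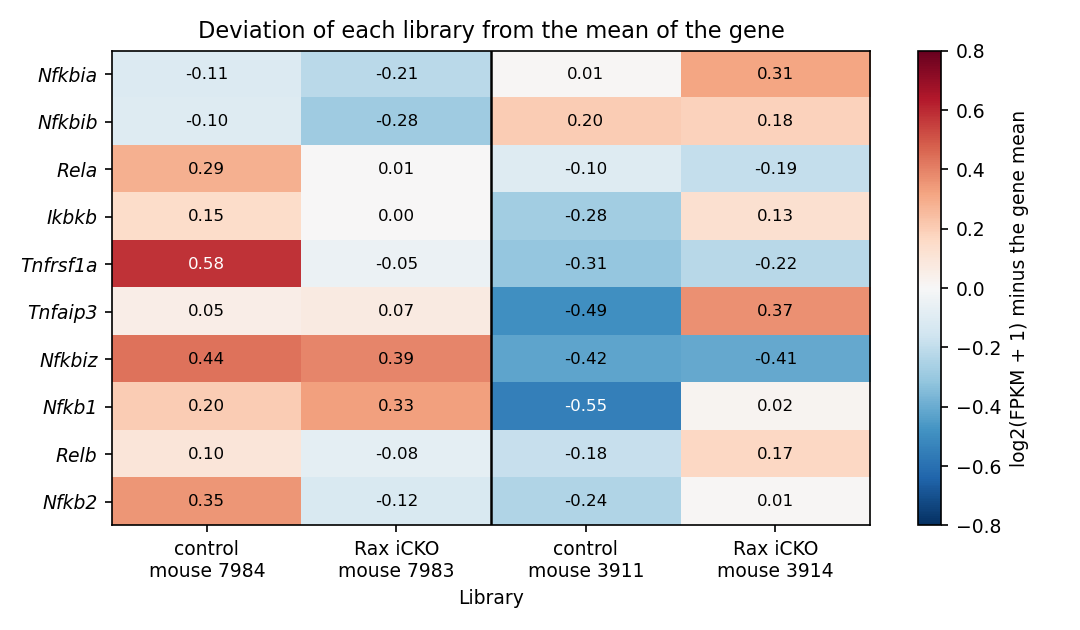
Deviation of log2(FPKM + 1) from the mean of each gene over the 4 libraries (red above, blue below, values printed in the cells), with the mice ordered by run of number and a line between the runs. *Nfkbiz* changes sign at the line, while within each run the control and *Rax* iCKO columns of that gene are alike.

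The order of the levels was *Nfkbia*, *Nfkbib*, *Rela*, *Ikbkb*, *Tnfrsf1a*, *Tnfaip3*, *Nfkbiz*, *Nfkb1*, *Relb* and *Nfkb2* by mean FPKM over the 4 libraries, from 24.8 down to 1.33. The first 3, with means of 24.8, 23.0 and 22.3 FPKM, did not differ beyond their spread. Neither did *Ikbkb* and *Tnfrsf1a*, nor *Nfkb1* and *Relb*. The ranges of neighbours in this order were apart at 2 places, between *Rela* and *Ikbkb* and between *Tnfaip3* and *Nfkbiz*. The mean of *Nfkbia* stood at percentile 67.5 of all genes tested and that of *Nfkb2* at percentile 3.43.

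In the rest of the pathway, no gene passed the test either. Of 68 other pathway genes, listed by role, 47 passed the filter, and 0 had an adjusted or an unadjusted p under 0.05 in limma. The log2 fold change was positive for 27 and negative for 20, with a range from -0.65 for *Tlr3* to 0.59 for *Nfkbid* and a median of 0.09 that was 0.04 without control mouse 3911 and 0.02 without *Rax* iCKO mouse 3914. Both *Rax* iCKO libraries lay above both controls for 10 of these 47, against 15.4% of all genes, and below both for 5, against 14.1%. Of the 29 relay proteins and kinases 27 were tested, with *Cul1* (a scaffold of the ligase that ubiquitinates IκB), *Rbck1* and *Fbxw11* the most abundant, at means of 69.7, 47.9 and 45.03 FPKM. Of the 17 further feedback genes and brakes 14 were tested, of which 6 had a positive and 8 a negative log2 fold change. Of the 18 receptors and ligands only 4 were tested, namely *Il1rap*, *Ltbr*, *Tlr3* and *Il1r1*. *Tlr3*, which encodes a receptor for double-stranded RNA, had FPKM of 5.99 in control mouse 7984, 4.54 in control mouse 3911, 3.67 in *Rax* iCKO mouse 7983 and 2.37 in *Rax* iCKO mouse 3914. It did not pass the test, with a log2 fold change of -0.65 (SE 0.30) and a limma p of 0.0739 before and 0.9999 after adjustment. Of the 4 other genes of the NF-κB and IκB families, *Nfkbie* (IκBε) and *Nfkbid* (IκBNS) were tested. FPKM of *Nfkbie* were 2.001 in control mouse 7984, 2.93 in control mouse 3911, 4.02 in *Rax* iCKO mouse 7983 and 3.31 in *Rax* iCKO mouse 3914. FPKM of *Nfkbid* were 1.04 in control mouse 7984, 2.202 in control mouse 3911, 3.16 in *Rax* iCKO mouse 7983 and 2.55 in *Rax* iCKO mouse 3914. Both genes were higher in each *Rax* iCKO library than in each control, with log2 fold changes of 0.44 (SE 0.29) and 0.59 (SE 0.33), and neither passed the test, with limma p values of 0.181 and 0.129 before and 0.9999 after adjustment.

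Genes that NF-κB is known to induce ranged from 0 in all libraries to a mean of 275.2 FPKM. Of 36 target genes, 14 passed the filter, against 12363 of all 24322 gene symbols. Listed at 0 in all 4 libraries were 6 of the 36, among them *Il6*, *Cxcl2* and *Ccl20*. Of all 24322 symbols, 17865 had a mean above 0. The chemokine gene *Ccl2* was listed at 0 in mice 7983 and 7984 and reached 0.534 FPKM in control mouse 3911 and 0.177 FPKM in *Rax* iCKO mouse 3914. *Icam1*, an adhesion molecule gene, was between 0.276 and 0.906 FPKM. The abundant targets were *Sqstm1*, *Vcam1* and *Bcl2l1*, with means of 275.2, 184 and 45.6 FPKM and log2 fold changes of 0.16 (SE 0.29), -0.58 (SE 0.41) and -0.03 (SE 0.20), each with an adjusted p of 0.9999 in limma. Of the 14 tested, 5 had a positive and 9 a negative log2 fold change, with a median of -0.15 that was -0.05 without control mouse 7984, -0.27 without control mouse 3911 and -0.09 without *Rax* iCKO mouse 3914. For 5 of the 14 each *Rax* iCKO value was below each control value, against 14.1% of all genes, for 2 it was above, against 15.4%, and 0 passed the adjusted threshold. An unadjusted limma p under 0.05 was reached by 3 of the 14, against 2.86% of all genes, all with negative values: *Ier3*, *Ccnd1* and *Gadd45b*. *Ier3*, an early response gene, had FPKM of 29.6 in control mouse 7984, 24.7 in control mouse 3911, 15.6 in *Rax* iCKO mouse 7983 and 8.81 in *Rax* iCKO mouse 3914. Its log2 fold change was -1.14 (SE 0.31), with a limma p of 0.00989 before and 0.9999 after adjustment. FPKM of *Ccnd1*, which encodes cyclin D1, were 16.5 in control mouse 7984, 11.8 in control mouse 3911, 8.19 in *Rax* iCKO mouse 7983 and 6.42 in *Rax* iCKO mouse 3914. FPKM of *Gadd45b*, a stress response gene, were 5.09 in control mouse 7984, 3.44 in control mouse 3911, 2.49 in *Rax* iCKO mouse 7983 and 1.61 in *Rax* iCKO mouse 3914. In all 3 genes the groups were apart. The sums of Müller glial and rod markers were likewise lower in both *Rax* iCKO libraries, and their part in these values was not tested. These genes answer to other pathways as well.

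**Figure D4:**
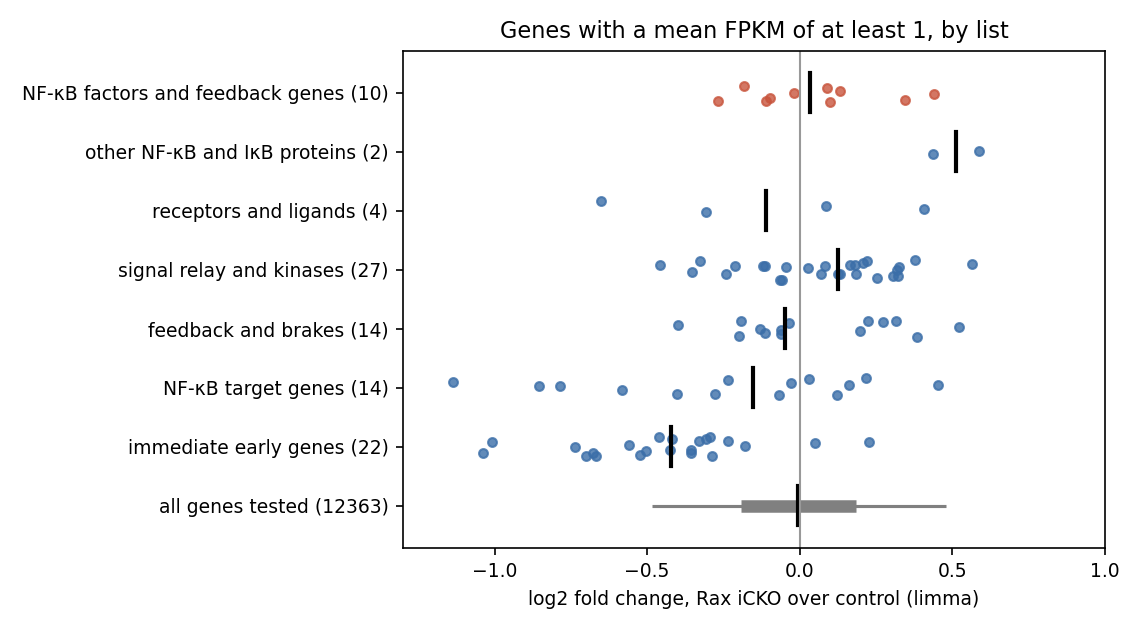
Log2 fold change of *Rax* iCKO over control from limma for the genes of each list that passed the filter (points, with the number of genes in brackets) and the median of the list (black line). For all 12363 genes the thin bar spans percentiles 5 to 95, from -0.49 to 0.48, and the thick bar percentiles 25 to 75, from -0.19 to 0.18. All 10 NF-κB factors and feedback genes lie inside the thin bar.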

How the data were processed

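RNA of sorted mTFP-positive cells from 2 control and 2 *Rax* iCKO mice was analysed. Reads were aligned by the authors to mm10 (TopHat with Bowtie2, then SAMtools), and FPKM per gene symbol, made with Cufflinks (Cuffdiff 2.2.1 in the processing notes), were deposited. Use of strand by the counting is not given in the sources used here. The labels and the paper name different RNA isolation reagents. Genotypes came from the labels.

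FPKM were used as deposited. Log2(FPKM + 1) of the 12363 genes whose mean reached 1 FPKM was fitted with limma 3.58.1 (R 4.3.3, variance trend), and p-values were adjusted over all of them by Benjamini-Hochberg. Fold changes on this scale understate changes of genes with low FPKM. Single values were compared with two-sided exact permutation tests (scipy 1.17.1). Depth was the value at which low FPKM of single-transcript genes (GENCODE vM21, length of 600 bases or more, less 200 bases) fell on whole reads, which 71.7% to 75.9% of these values did within 0.1 of a read. Reads per gene used the longest principal transcript. No count test was run. The scripts were tested on simulated data.

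Alternatives changed 1 choice each, namely the pseudocount (0.1), the filter (none, or 5 FPKM), the scaling (quantile, or equal medians), the variance trend (none), a replicate block for the run of mouse numbers, the leaving out of each mouse, and log2(FPKM + 1) in the permutation tests. All 10 genes are named, and a rule listed further genes to name. From each pathway, target and early gene list it took the 3 most abundant and those with an unadjusted limma p under 0.05. From each marker list it took the 2 most abundant, and it added the 3 genes nearest in pattern to the gene with the largest fold change. Not all of these are described: the feedback genes *Commd1*, *Tax1bp1* and *Tollip* and most of the markers are left out. Other genes were named after their values were seen. The genes and lists were chosen with earlier results of these data known, so lists are described by counts and medians with no test.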

Additional observations from a re-analysis of the deposited data

How the results depend on the processing

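For the 10 genes, 0 had an adjusted p under 0.05 in limma under any of the 11 alternatives, and 1 fit of a gene had an unadjusted p under 0.05 (*Tnfrsf1a* without control mouse 3911). The sign of the fold change stayed in all 66 fits with 4 libraries. Leaving out 1 mouse changed it for 9 of the 10, with log2 fold changes from -0.027 to 0.72 for *Nfkb1*, -0.40 to 0.19 for *Nfkb2*, -0.38 to 0.012 for *Rela*, -0.051 to 0.23 for *Relb*, -0.16 to 0.36 for *Nfkbia*, -0.33 to 0.14 for *Nfkbib*, -0.45 to 0.41 for *Nfkbiz*, -0.71 to 0.18 for *Tnfrsf1a* and -0.082 to 0.35 for *Ikbkb*, and from 0.17 to 0.71 for *Tnfaip3*, whose sign stayed. Such a fit assumes that the lone mouse varies like the other genotype. The median of the 10 ran from -0.07 to 0.21. Permutation tests cannot reach 0.05 on either scale.

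Over all genes, 3 passed an adjusted p of 0.05, against 0 without a filter (624 at an unadjusted p under 0.05) and 0 when the mean had to reach 5 FPKM (279 unadjusted), 6 with equal medians, and 15 to 20 without 1 mouse. With a replicate block for the mouse numbers (7983 with 7984, 3911 with 3914) 71 passed, none of them among the 10 (lowest adjusted p 0.361, *Tnfaip3*). The correlation of log2 values between libraries was 0.970 within both runs of numbers and 0.947 to 0.955 otherwise, but the labels do not say that the runs are litters or batches. The causes were not tested. Depth limits *Relb*, *Nfkb2* and *Nfkb1* most, at about 26 to 112 reads.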

Other observations

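Immediate early genes, which growth factors, stress and tissue dissociation induce, were abundant in these cells, with *Fos*, *Dusp1* and *Ier2* at means of 1009, 670.2 and 474.2 FPKM. Of 32 listed, 22 were tested, and 20 of them had a negative log2 fold change in *Rax* iCKO, with a median of -0.42 beside -0.0044 over all genes. For 13 of the 22 each *Rax* iCKO value was below each control value, against 14.1% of all genes. In fits without 1 mouse 16 to 21 of the 22 were negative, with a median of -0.14 without control mouse 7984, -0.29 without *Rax* iCKO mouse 3914 and -0.68 without control mouse 3911. Of the cell type markers, 14 of 15 Müller glial markers had a negative log2 fold change (median -0.32), as did 12 of 12 rod markers (median -0.56). The genotypes were apart in this direction for 5 of these Müller glial and 9 of these rod markers, again against 14.1% of all genes. Bipolar cell markers had the opposite sign, positive for 9 of 10 against 49.2% of all genes (median 0.27), and 4 had both *Rax* iCKO libraries above both controls, against 15.4%. The part of these cells in the early gene values was not tested. No early gene passed an adjusted p of 0.05 in limma, and 5 of the 22 had an unadjusted p under 0.05, against 2.86% of all genes: *Zfp36*, *Egr2*, *Junb*, *Ier2* and *Cyr61*. *Zfp36*, whose protein destabilizes inflammatory mRNAs, had FPKM of 67.5 in control mouse 7984, 55.8 in control mouse 3911, 37.5 in *Rax* iCKO mouse 7983 and 24.01 in *Rax* iCKO mouse 3914. Its log2 fold change was -1.01 (SE 0.27), with a limma p of 0.0101 before and 0.9999 after adjustment. The rapidly inducible NF-κB feedback genes *Nfkbia*, *Tnfaip3* and *Nfkbiz* had log2 fold changes of 0.10, 0.44 and -0.02 in the same fit. The difference between these lists was not tested.

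Microglia markers were lowest in *Rax* iCKO mouse 3914, where the 15 genes summed to 25.8 FPKM, against 132.5 in *Rax* iCKO mouse 7983 and 80.2 and 94.3 in control mice 7984 and 3911. Of the 10 NF-κB genes, *Nfkbia*, *Tnfaip3* and *Relb* were at their highest in mouse 3914 (30.8, 12.2 and 2.21 FPKM) and *Rela* at its lowest (19.2 FPKM), and the part of microglia in these levels was not tested.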
